A study of Homo sapiens with 8 samples.

Results

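The insulin-like growth factor (IGF) axis was described through 10 genes of the 20263 in the deposited table. These were the ligand IGF2, the receptors IGF1R, IGF2R and INSR, the adaptors IRS1 and IRS2, the binding proteins IGFBP3, IGFBP4 and IGFBP6, and the mRNA-binding protein IGF2BP3. They were chosen by the TPM differences between treated and control cells in these same libraries, so their differences are given as values without p-values, and how many of them a test over all genes called is given only as a description. PANC-1, a human line established from a pancreatic ductal carcinoma, was treated for 24 h with 10 μM eupalinolide B (EB), a sesquiterpene lactone from the plant Eupatorium lindleyanum, or with DMSO, its solvent. Each group had 4 libraries, which the study's methods call biological replicates, although they also mention triplicates where the sequencing is described. RNA was sequenced and given as TPM, each gene's share of a library's transcripts after division by transcript length, scaled to a fixed total. The comparison asks how the genes that make, receive and relay the IGF signal differ between EB and DMSO in a single line of cancer cells.

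IGF2 is a secreted peptide hormone that drives growth through IGF1R, a receptor tyrosine kinase closely related to the insulin receptor INSR. An activated receptor phosphorylates the docking proteins IRS1 and IRS2, which recruit PI3-kinase and so feed the AKT and mTOR pathway. IGF2R binds IGF2 without relaying a growth signal and carries it to lysosomes, and the IGF binding proteins hold the ligands outside the cell. In pancreatic ductal cancer this axis is known as a growth and survival route of the tumor cells.

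The libraries held 11353 to 11894 genes at a TPM of at least 1, and no pair was identical. Mitochondrially encoded RNA took 17.01 to 39.0% of the TPM with DMSO and 11.6 to 20.3% with EB. DMSO replicate 4, at 39.0%, stood apart from the other 3 DMSO libraries, so values are also given after these 13 genes were removed and the rest rescaled (nuclear TPM). Of the epithelial and ductal markers 4 of 7 reached a TPM of 1, led by KRT8, KRT18, KRT19 and SOX9, while EPCAM, KRT7 and CDH1 stayed below it in every library. The summed TPM of the 7 was 1129 to 1594 with DMSO and 3262 to 3652 with EB. The keratins KRT8, KRT18 and KRT19 were higher in every EB library, and SOX9 was lower, at 128 to 172 TPM with DMSO and 43.9 to 72.1 with EB. None of the 5 acinar, 5 endocrine, 3 endothelial and 2 hepatocyte markers reached a TPM of 1. Of 6 fibroblast markers 2 did, COL1A1 and COL1A2, with DCN and LUM at 0 and a sum of 64.0 to 91.8 with DMSO and 38.8 to 50.5 with EB. Of 4 leukocyte markers only CD14 did, with PTPRC and CD3E at 0. The part of these differences in the results was not tested.

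In DMSO-treated cells IGFBP6 had the highest level of the 10 genes, with a mean of 286 TPM. It was followed by IGF2BP3 (65.9), IGF2R (35.9), IRS1 (30.3), IGF1R (19.7), IGF2 (9.39), IGFBP4 (9.15), INSR (5.68) and IRS2 (3.17), and IGFBP3 was listed at 0 in all 8 libraries. The ranges of most neighbours in this order overlapped, and only IGFBP6 stood clear of IGF2BP3, IGF2BP3 of IGF2R and IRS2 of IGFBP3. With EB the order began with the same 5 genes and IGF2 moved from the sixth to the eighth place, behind IGFBP4 and INSR. IRS1 then stood clear of both IGF2R above it and IGF1R below it.

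**Figure D1:**
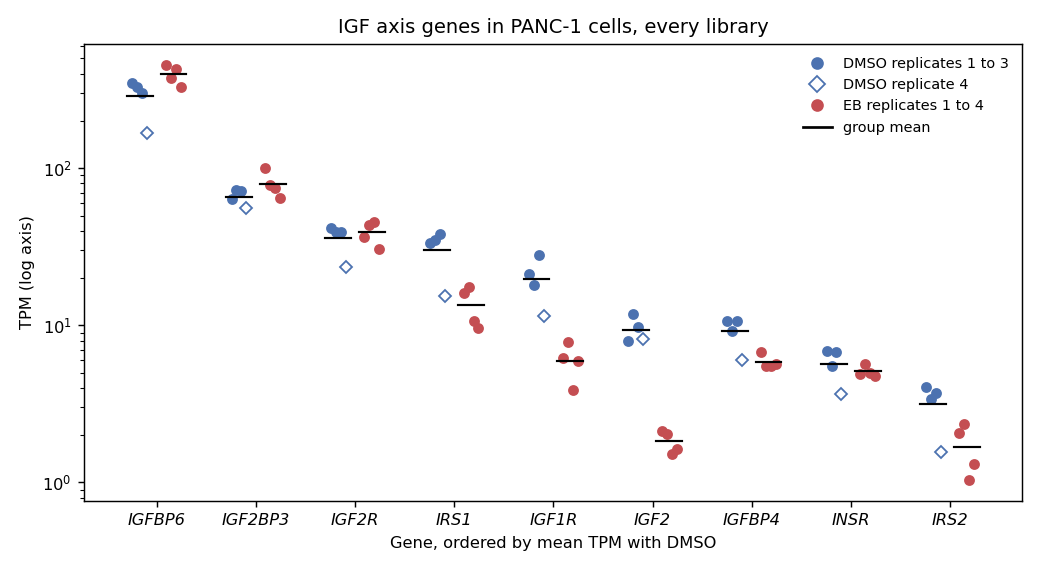
TPM of 9 genes of the IGF axis in every library on a log axis, with DMSO in blue (replicate 4 as an open diamond), EB in red and a line at each group's mean; IGFBP3, at 0 throughout, cannot be drawn on this axis. All EB libraries lie below all DMSO libraries for IGF2 and IGF1R, and for IRS1 the groups meet only at DMSO replicate 4.

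IGF2, the only one of 4 listed ligands at a TPM of 1 or more, was at 19.5% of its control level in EB-treated cells. The gene (ENSG00000167244) lies on the minus strand of chromosome 11 from 2129112 to 2158391 (hg38), with a canonical transcript of 5580 nt. Its TPM was 7.91, 11.7, 9.71 and 8.22 in DMSO replicates 1 to 4, and 2.12, 2.04, 1.53 and 1.64 in EB replicates 1 to 4. Every EB library was below every DMSO library, and DMSO replicate 4 was not the lowest of its group. The means were 9.39 ± 1.74 (SD, n = 4) with DMSO and 1.83 ± 0.293 with EB. On the log2(TPM + 1) scale the difference was -1.87 (SE 0.15), which understates the change of a low gene, and with a pseudocount of 0.1 it was -2.29. This difference was the 71st lowest of the 11725 genes tested. With bulk RNA, fewer cells that express a gene and less RNA per cell cannot be told apart. Other ligands of the family were near 0, with INS listed at 0 in every library and the highest mean of IGF1 at 0.00243 TPM. INS-IGF2, a read-through gene that overlaps IGF2 on the same strand, had at most a mean of 0.011 TPM. IGF2-AS overlaps on the opposite strand, and since the strand setting of the counting was not stated, reads from this antisense gene and IGF2 cannot be told apart.

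The receptors separated. IGF1R, the signaling receptor for IGF2, was lower in every EB library, whereas INSR and IGF2R overlapped between the groups. Start regions of the 3 receptor genes are printed so that a receptor with a large difference can be read beside its relatives. Each is the 250 bases before the RefSeq start, 5′ to 3′ on the gene's strand (GRCh38.p14), at chr15:98648289-98648538 (plus) for IGF1R, chr19:7294415-7294664 (minus) for INSR and chr6:159968832-159969081 (plus) for IGF2R. Capitals mark GGGCGG (the GC box), CACGTG (the E-box) and TGTTTAC (a FOXO motif) on either strand, with overlapping matches counted separately.
IGF1R: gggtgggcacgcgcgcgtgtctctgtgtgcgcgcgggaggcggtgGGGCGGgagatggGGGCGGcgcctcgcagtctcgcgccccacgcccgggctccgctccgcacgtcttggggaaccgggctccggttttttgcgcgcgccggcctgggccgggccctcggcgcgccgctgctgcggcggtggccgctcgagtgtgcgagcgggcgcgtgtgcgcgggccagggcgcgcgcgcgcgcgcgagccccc
INSR: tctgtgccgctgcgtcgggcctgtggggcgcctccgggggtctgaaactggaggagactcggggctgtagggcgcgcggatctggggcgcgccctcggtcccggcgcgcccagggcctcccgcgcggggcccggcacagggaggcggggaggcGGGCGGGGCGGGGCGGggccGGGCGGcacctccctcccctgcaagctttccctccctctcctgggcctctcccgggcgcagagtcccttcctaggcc
IGF2R: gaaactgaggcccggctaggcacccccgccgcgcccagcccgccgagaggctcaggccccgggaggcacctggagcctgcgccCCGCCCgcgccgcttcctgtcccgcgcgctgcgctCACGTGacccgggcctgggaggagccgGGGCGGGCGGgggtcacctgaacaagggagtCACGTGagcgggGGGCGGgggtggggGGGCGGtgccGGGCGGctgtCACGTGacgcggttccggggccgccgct
The GC box occurred 2 times before IGF1R, 4 times before INSR and 6 times before IGF2R, and 42.6% of 35116 RefSeq promoter windows of this length hold at least 1. The E-box occurred 3 times before IGF2R and not in the windows of the others, and 6.34% of all windows hold it. The 3 windows had a GC content of 81.2, 78.4 and 79.2%, against a median of 58.0% over all windows.

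IGF1R (ENSG00000140443, chromosome 15, 98648539 to 98964530, plus strand, 21 exons) was measured at 21.2, 18.0, 27.9 and 11.5 TPM in the DMSO libraries. In the EB libraries it was 6.19, 7.85, 3.87 and 5.90 TPM. The groups did not overlap, although DMSO replicate 4 was the lowest of its group. The mean was 19.7 ± 6.85 with DMSO and 5.95 ± 1.63 with EB, or 30.3% of the DMSO mean, and the log2 difference was -1.54 (SE 0.26). Across the omission of each library it ran from -1.76 to -1.36. SYNM-AS1 overlaps IGF1R on the opposite strand, with the limit given for IGF2.

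INSR, which binds insulin and, in its shorter isoform, also IGF2, was at 6.82, 5.47, 6.75 and 3.67 TPM with DMSO and 4.92, 5.71, 4.94 and 4.78 TPM with EB. All EB values lay within the DMSO range, with means of 5.68 ± 1.47 and 5.09 ± 0.421. The log2 difference was -0.11 (SE 0.17), and its sign changed with the processing (0.21 after quantile normalization, 0.42 after removal of the length and GC trend). INSR lies on chromosome 19 from 7112255 to 7294414, and the third gene of this receptor family, INSRR, had at most a mean of 0.0232 TPM.

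IGF2R, the clearance receptor, is a gene of 48 exons on chromosome 6 (159969082 to 160113507). Its TPM was 41.5, 39.5, 39.3 and 23.4 with DMSO and 36.6, 43.5, 45.6 and 30.4 with EB. The groups overlapped, and DMSO replicate 4 was far below the other DMSO libraries. The means were 35.9 ± 8.41 and 39.0 ± 6.90, and the log2 difference of 0.14 (SE 0.21) had the opposite sign with nuclear TPM (-0.05) and in the omission range (-0.05 to 0.25). AIRN overlaps IGF2R on the opposite strand, with the same limit as above.

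Ratios within a library do not depend on the scaling between libraries and put the receptors side by side. The TPM ratio of IGF1R to INSR was 3.11, 3.29, 4.14 and 3.13 with DMSO and 1.26, 1.38, 0.783 and 1.23 with EB. It was lower in every EB library, with means of 3.42 ± 0.489 and 1.16 ± 0.261 (n = 4) and a log2 difference of -1.58, or -1.60 after removal of the length and GC trend. IGF1R thus exceeded INSR in each DMSO library, and in EB replicate 3 it was below INSR. The ratio of IGF2R, which removes IGF2, to IGF2 was 5.24, 3.37, 4.05 and 2.84 with DMSO and 17.2, 21.4, 29.9 and 18.5 with EB. Every EB library was above every DMSO library, and the means were 3.87 ± 1.036 and 21.8 ± 5.68, a log2 difference of 2.49.

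**Figure D2:**
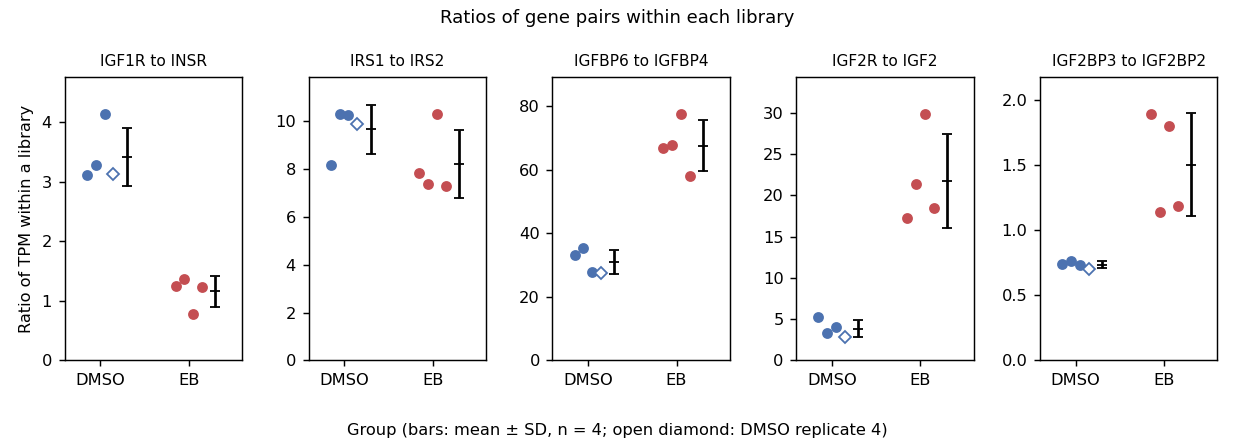
TPM ratios of 5 gene pairs within each library, on linear axes from 0, for DMSO (blue, replicate 4 as an open diamond) and EB (red), with bars at the mean ± SD (n = 4). The IGF1R to INSR ratio is lower in every EB library, the IGFBP6 to IGFBP4, IGF2R to IGF2 and IGF2BP3 to IGF2BP2 ratios are higher in every EB library, and IRS1 to IRS2 overlaps.

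The adaptors that dock on the activated receptors were both lower on average with EB, and for both the groups overlapped. IRS1 and IRS2 are genes of 2 exons, and their start regions are shown as a pair of paralogs, at chr2:226799821-226800070 (minus) and chr13:109786584-109786833 (minus), with capitals as above.
IRS1: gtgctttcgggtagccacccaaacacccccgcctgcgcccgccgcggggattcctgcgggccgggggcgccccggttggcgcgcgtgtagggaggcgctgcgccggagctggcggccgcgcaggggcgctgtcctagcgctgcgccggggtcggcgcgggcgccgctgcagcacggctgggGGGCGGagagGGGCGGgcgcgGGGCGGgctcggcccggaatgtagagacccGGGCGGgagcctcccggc
IRS2: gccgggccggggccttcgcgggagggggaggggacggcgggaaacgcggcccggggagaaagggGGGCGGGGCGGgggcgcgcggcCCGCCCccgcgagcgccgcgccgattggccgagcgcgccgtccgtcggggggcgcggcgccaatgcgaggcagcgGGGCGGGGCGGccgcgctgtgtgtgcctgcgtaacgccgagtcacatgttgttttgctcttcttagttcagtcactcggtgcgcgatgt
The GC box occurred 4 times before IRS1 and 5 times before IRS2, with neither of the other motifs, at a GC content of 80.8 and 76.4%.

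IRS1 (ENSG00000169047, chromosome 2, 226731312 to 226799820) was at 33.2, 34.7, 37.9 and 15.4 TPM with DMSO and 16.2, 17.5, 10.7 and 9.56 TPM with EB. Only DMSO replicate 4 reached into the EB range. The means were 30.3 ± 10.1 and 13.5 ± 3.93, or 44.4% of the DMSO mean, and the log2 difference was -1.08 (SE 0.29). With nuclear TPM the values were 40.04, 44.1, 48.0 and 25.3 against 18.3, 20.5, 12.2 and 12.0, and every EB library was lower.

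IRS2 (ENSG00000185950, chromosome 13, 109752695 to 109786583) was much less abundant. It was at 4.07, 3.37, 3.69 and 1.56 TPM with DMSO and 2.06, 2.37, 1.036 and 1.31 TPM with EB, with a log2 difference of -0.61 (SE 0.24). DMSO replicate 4 lay within the EB range here too, and the groups still overlapped with nuclear TPM. The ratio of IRS1 to IRS2 was 9.66 ± 1.01 with DMSO and 8.20 ± 1.42 with EB and overlapped between the groups. IRS4 was listed at 0 in every library.

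The binding proteins differed from each other in direction. IGFBP6, which prefers IGF2 over IGF1, was the most abundant gene of the axis and higher on average with EB, IGFBP4 was lower, and IGFBP3, the main carrier of IGFs in blood, was listed at 0 in all 8 libraries. None of 20 housekeeping genes was at 0 in any library. These genes are well expressed, so this does not show whether a listed 0 means no expression. Of the 20263 genes in the table, 4121 were at 0 in all 8 libraries. IGFBP6 (ENSG00000167779, chromosome 12, 53097436 to 53102345) has the shortest transcript of the 10 genes (947 nt). Its start region, at chr12:53097417-53097666 (plus), is shown because it alone of the 9 matched windows held the FOXO motif. The window is counted from the RefSeq start, and the annotated gene already begins at 53097436. Most of the window, with the FOXO motif, therefore lies inside the annotated gene and not before it.
IGFBP6: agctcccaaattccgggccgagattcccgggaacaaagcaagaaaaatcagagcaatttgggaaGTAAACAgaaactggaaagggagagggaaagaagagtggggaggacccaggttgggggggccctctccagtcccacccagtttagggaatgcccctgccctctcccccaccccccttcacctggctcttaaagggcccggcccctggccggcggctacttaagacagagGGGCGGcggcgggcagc
The FOXO motif occurred 1 time and the GC box 1 time, and 2.98% of all windows hold the FOXO motif.

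IGFBP6 was at 351, 328, 300 and 167 TPM with DMSO and 456, 374, 427 and 329 TPM with EB. The lowest EB library was below the highest DMSO library, so the groups overlapped. The means were 286 ± 82.6 and 396 ± 56.1, and the log2 difference of 0.51 (SE 0.23) was 0.27 without DMSO replicate 4. IGFBP4 (ENSG00000141753, chromosome 17, 40443450 to 40457725) was at 10.6, 9.25, 10.7 and 6.05 TPM with DMSO and 6.80, 5.50, 5.50 and 5.66 TPM with EB. The groups met only at DMSO replicate 4 and EB replicate 1, and with nuclear TPM every EB library was lower. Its log2 difference was -0.54 (SE 0.18).

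The ratio of IGFBP6 to IGFBP4 was 33.2, 35.5, 27.9 and 27.5 with DMSO and 67.0, 67.9, 77.6 and 58.2 with EB. All EB libraries were higher, with means of 31.0 ± 3.93 and 67.7 ± 7.95 and a log2 difference of 1.13, or 0.86 after removal of the length and GC trend and 0.57 after quantile normalization. Among the other binding proteins, IGFBP2 was at 19.04 ± 6.17 TPM with DMSO and 22.4 ± 0.998 with EB (log2 difference 0.29, limma adjusted p = 0.330). IGFBP7 was at 2.01 ± 0.722 and 1.38 ± 0.586 TPM (-0.34, limma adjusted p = 0.248). Neither passed the test. IGFBP1 and IGFBP5 were listed at 0 throughout, and IGFALS and IGFBPL1 had means below 0.3 TPM.

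IGF2BP3, an oncofetal protein that binds IGF2 mRNA among many others, was at 63.4, 72.7, 71.8 and 55.7 TPM with DMSO and 100, 77.9, 75.4 and 64.7 TPM with EB. The groups overlapped, with means of 65.9 ± 7.98 and 79.6 ± 14.99 and a log2 difference of 0.26 (SE 0.16), or 0.08 with nuclear TPM. MALSU1 overlaps IGF2BP3 on the opposite strand, with the limit given for IGF2. The start region of IGF2BP3, at chr7:23470492-23470741 (minus), is shown as the 1 matched window with no GC box.
IGF2BP3: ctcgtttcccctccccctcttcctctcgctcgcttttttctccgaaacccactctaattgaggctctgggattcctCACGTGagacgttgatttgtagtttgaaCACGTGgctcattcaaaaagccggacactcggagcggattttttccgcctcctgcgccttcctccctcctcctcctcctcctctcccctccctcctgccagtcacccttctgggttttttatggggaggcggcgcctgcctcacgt
The E-box occurred 2 times in it. The paralog IGF2BP2, which was not among the 10 genes, fell from 89.7 ± 8.42 to 54.5 ± 10.9 TPM (log2 difference -0.72, SE 0.16, limma adjusted p = 0.00647), with all 4 EB libraries lower. The ratio of IGF2BP3 to IGF2BP2 was 0.740, 0.761, 0.734 and 0.698 with DMSO and 1.89, 1.14, 1.80 and 1.19 with EB. IGF2BP2 was the more abundant of the pair in every DMSO library and IGF2BP3 in every EB library. The mean ratios were 0.733 ± 0.0262 and 1.502 ± 0.396, a log2 difference of 1.0. IGF2BP1 had a mean of 0.267 TPM with DMSO and 0.269 TPM with EB.

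Of the 10 genes 9 reached 1 TPM in every library and entered the fit over 11725 genes, which required this of 4 libraries. By limma at an adjusted p under 0.05 over all of them, 4 were called lower (IGF2, IGF1R, IRS1 and IGFBP4), where 25.1% of all tested genes were called lower. None was called higher, where 15.2% of all were. At an unadjusted p under 0.05 the counts were 5 lower and 0 higher, and the share of all genes at that threshold was not counted. The EB libraries were all below the DMSO libraries for 2 of the 9, against 20.3% of tested genes, and all above them for 0, against 16.6%. These counts follow from how the genes were chosen and nothing is read from them. DMSO replicate 4 was the lowest of its group for 8 of the 9 genes, and for 7 with nuclear TPM, where 4 genes had all EB libraries lower. The shares of all genes that did so were not counted, so these counts are not read as a trait of the members. Over all genes, the median-ratio scaling factor of DMSO replicate 4 was 0.832, against 1.126 to 1.14 for the other DMSO libraries.

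Transcript length moved with the contrast over the whole table. With the genes in 10 bins of equal size by length, from the shortest (276 to 1225 nt) to the longest (7317 to 34626 nt), the median log2 difference went from 0.41 to -0.54, and 5 of the genes, IGF1R (12235 nt), IGF2R (14061 nt), INSR (9463 nt), IRS1 (9771 nt) and IRS2 (8156 nt), lie in the longest bin. Against that median of -0.54, IGF1R and IRS1 were lower, IRS2 was close and INSR and IGF2R were higher. IGFBP6 lies in the shortest bin, whose median was 0.41. After each library was corrected for its trend on length and GC, the log2 differences were -1.46 for IGF2, -1.0 for IGF1R, -0.55 for IRS1, -0.10 for IRS2, 0.42 for INSR, 0.68 for IGF2R, 0.20 for IGFBP6, -0.58 for IGFBP4 and 0.54 for IGF2BP3. IGF2 and IGF1R had the lowest values with and without the trend. The part of transcript length in these differences was not tested.

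**Figure D3:**
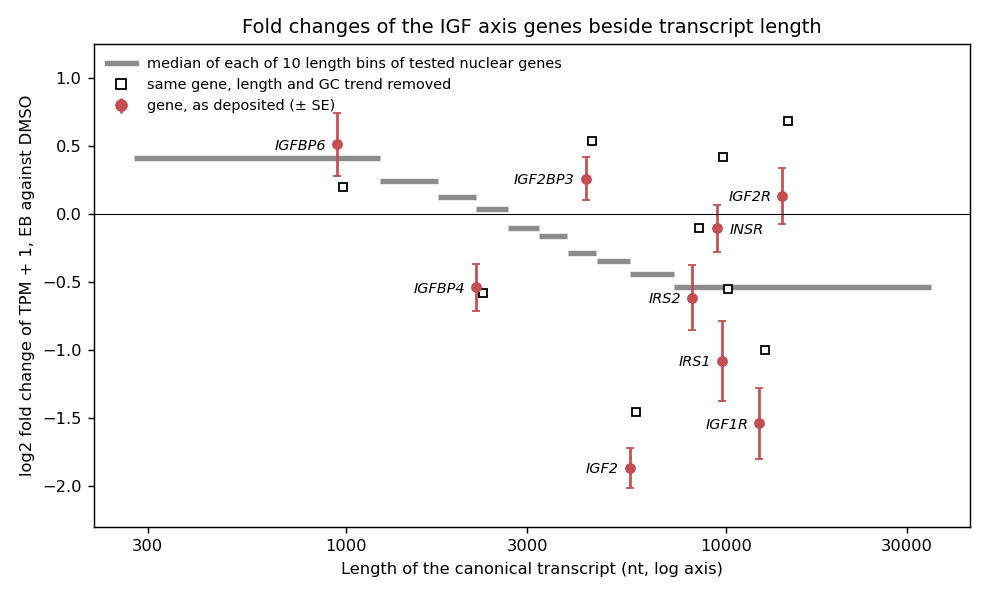
The log2 difference between EB and DMSO (vertical) against the length of the canonical transcript in nt (horizontal, log axis) for 9 genes: red points with SE bars as deposited and open squares with the length and GC trend removed, slightly offset, over grey bars at the median of each of 10 length bins of nuclear genes. The grey medians go from 0.41 to -0.54, and IGF2, IGF1R, IRS1 and IGFBP4 lie below the median of their bin, IGF2BP3, INSR and IGF2R lie above it, and IRS2 and IGFBP6 lie within an SE of it.

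Other genes of IGF and insulin signaling were taken from 13 lists by role, members left out. Of 107 tested, 43 were called lower and 9 higher, or 40.2 and 8.41%, against 25.1 and 15.2% of all tested genes. Their median log2 difference was -0.45 against -0.11 over all tested genes, and after removal of the length and GC trend it was -0.14 against 0.02. It was -0.27 against 0.02 after quantile normalization and -0.24 against -0.04 with no filter on low values. Scaling moved the split, from 7 higher and 64 lower with nuclear TPM to 18 higher and 45 lower with median-ratio scaling and 18 higher and 37 lower after removal of the length and GC trend. Over all genes, with nuclear TPM 1451 were called higher and 4954 lower of 11967 tested. With median-ratio scaling the counts were 3039 and 3080 of 11725, and after removal of the trend 2853 and 2547 of 11685. As a share of the genes called in either direction, higher calls over all genes went from 37.8% to 22.7, 49.7 and 52.8% in the same order. After quantile normalization this share was 50.3%. The median of all genes was -0.28 with nuclear TPM and -0.01 with median-ratio scaling. The adjusted p-values that follow are from limma over all genes tested.

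Genes that release the ligands from their binding proteins, or that process or sort ligands and receptors, were lower or did not pass the test. Of the 6 tested binding protein proteases and their inhibitors 3 fell, or 50.0%, against 25.1% of all tested genes. PLAT, the tissue plasminogen activator, fell from 7.66 ± 0.768 to 2.02 ± 0.601 TPM (log2 difference -1.54, adjusted p = 0.000197). HTRA1, a secreted serine protease, fell by 1.0 on the log2 scale (adjusted p = 0.0021), and ADAM9 by 0.58 (adjusted p = 0.0168, up to 0.0529 over the alternatives). Of 7 tested genes of ligand and receptor processing 3 fell, or 42.9%. These were the proprotein convertases PCSK4 (-0.80, adjusted p = 0.00393) and PCSK6 (-0.49, adjusted p = 0.0169) and the insulin-degrading enzyme IDE (-0.77, adjusted p = 0.0456), of which PCSK6 and IDE did not pass under some alternatives.

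Downstream of the receptors, 8 of 20 other adaptors fell and 1 rose, or 40 and 5%, against 25.1 and 15.2% of all tested genes, with a median of -0.33. The largest falls were those of the RAS exchange factor SOS1, from 14.8 ± 1.12 to 5.08 ± 1.19 TPM (-1.39, adjusted p = 0.000291), the docking protein GAB1 (-1.10, adjusted p = 0.00039), SHC2 (-1.03, adjusted p = 0.00176) and SOS2 (-0.82, adjusted p = 0.0039). GAB1 entered the test only through its DMSO libraries, since it was below 1 TPM in all EB libraries. In the PI3-kinase, AKT and mTOR relay 9 of 22 fell and 1 rose, or 40.9 and 4.55%, with a median of -0.55. The regulatory subunits PIK3R3 and PIK3R2, which bind phosphorylated IRS proteins, fell from 41.4 ± 5.82 to 7.38 ± 3.09 TPM (-2.43, adjusted p = 0.000368) and from 95.0 ± 16.4 to 33.2 ± 13.8 TPM (-1.56, adjusted p = 0.00192). PIK3R1, a further regulatory subunit, was below 1 TPM in every library and was not tested. Its mean was 0.198 TPM with DMSO and 0.614 TPM with EB, with all EB libraries higher. The kinase MTOR fell by 0.81 (adjusted p = 0.0453), with overlapping groups and an adjusted p of up to 0.279 over the alternatives. EIF4EBP1, the repressor of translation that mTOR inactivates, rose from 234 ± 45.0 to 628 ± 21.3 TPM (1.44, adjusted p = 0.000251).

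Of 22 attenuators of receptor signaling 6 fell and 4 rose, or 27.3 and 18.2%, which is near the 25.1 and 15.2% of all tested genes. CBL, a ubiquitin ligase for receptor tyrosine kinases, fell from 12.2 ± 3.54 to 0.710 ± 0.355 TPM (-2.92, adjusted p = 5.1e-05), and 3 of its 4 EB libraries were below 1 TPM. The phosphatase PTPRF (-1.43, adjusted p = 0.0131, overlapping groups) and SOCS3, an inhibitor of cytokine and insulin receptor signaling (-1.40, adjusted p = 0.000591), fell too. Other SOCS genes on this list were called in both directions. TRIB3, which binds AKT, rose from 20.5 ± 5.63 to 69.0 ± 35.5 TPM (1.64, adjusted p = 0.00366). FOXO factors and the genes they are known to induce, which AKT holds down, were counted as well, and 9 of 15 fell and 1 rose, or 60 and 6.67%. All of these calls were of induced genes, and the tested FOXO factors themselves did not pass the test. BCL6 (-1.68, adjusted p = 0.00171), TXNIP (-1.37, adjusted p = 6.9e-05) and SESN3 (-1.25, adjusted p = 0.000308) fell, and the stress-induced gene GADD45A rose from 27.8 ± 6.02 to 108 ± 12.0 TPM (1.94, adjusted p = 7.2e-05).

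**Figure D4:**
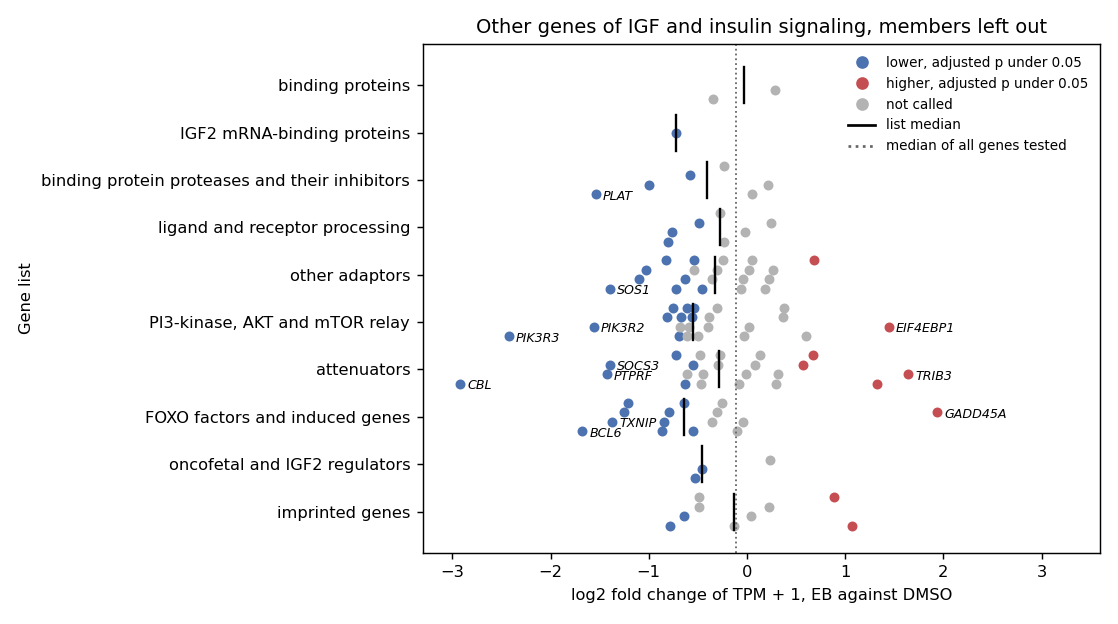
The log2 difference between EB and DMSO (horizontal) for each tested gene of the lists (vertical, 1 row a list, points spread within a row for legibility), in blue where lower and in red where higher at a limma adjusted p under 0.05, with each list's median as a black line and the median of all tested genes, -0.11, as a dotted line. CBL at -2.92 and PIK3R3 at -2.43 lie farthest to the left, and GADD45A at 1.94 and TRIB3 at 1.64 farthest to the right.

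Genes with profiles most like those of 4 members over the 8 libraries were found by the root mean square difference of log2(TPM + 1), each profile centred on its own mean, among 11724 other genes. For IGF2 they were EFNB3 (0.112), DTX3L (0.136) and ERAP2 (0.139), whose means went from 24.9 to 6.11, 23.6 to 5.75 and 15.1 to 3.28 TPM. For IGF1R they included PHACTR4 (0.126) and KMT2A (0.172). For IGFBP6 the differences were smaller, at 0.0499 for TRAF2, 0.0539 for FLYWCH2 and 0.0549 for P3H3. For IGF2R they were CBARP (0.0532), DALRD3 (0.0698) and RRBP1 (0.0836). The likeness is a description over libraries that share their scaling.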

How the data were processed

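RNA of PANC-1 cells was sequenced in 8 libraries, 4 with DMSO and 4 with EB. The authors deposited TPM for 20263 genes, normalized within each library. Their methods name CLC Genomics Workbench for trimming, mapping, counting and normalization, and both a mouse and a human assembly (hg38). Further tools are listed there as well, among them HISAT2 and StringTie, and which tool made the TPM is not stated. The table's identifiers are human, and 20148 matched a symbol in GENCODE release 44 (hg38), the source of positions and transcript lengths. No counts are in the table, so sequencing depth, and the precision that follows from it, is unknown here. The columns are headed C1 to C4 and H1 to H4, and were read as DMSO and EB replicates 1 to 4, although no label explains the letter H, so every direction given rests on this reading.

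Genes that reached 1 TPM in at least 4 libraries were tested on log2(TPM + 1) by limma 3.58.1 in R 4.3.3 (lmFit, eBayes, prior degrees of freedom 3.88, two-sided) with Benjamini-Hochberg adjustment over all 11725. The members and gene lists were chosen with earlier results of these data known. The genes named are all members, all other genes of their families on the lists, of each list the 4 called genes with the largest differences, and the 3 genes most like each of IGF2, IGF1R, IGFBP6 and IGF2R, apart from 1 gene that is not reported here. H19, MEG3, KCNQ1OT1, IGF2-AS and SOD2, also on the lists, were not analysed here. Promoter windows came from RefSeq (GRCh38.p14), where 9 of the 10 members matched and IGF2 did not. The motifs were chosen with the values known. The alternatives changed the pseudocount to 0.1, dropped the filter or raised it to 5 TPM, or used median-ratio scaling, quantile normalization, nuclear TPM, removal of the trend on length and GC content, an eBayes trend, the replicate number as a block and the omission of each library. Software was Python 3.11.15 with pandas 2.3.3, numpy 2.4.6 and matplotlib 3.10.9, and R's data.table (1.17.8).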

Additional observations from a re-analysis of the deposited data

Results flagged for a closer look

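In 13 of 80 groups of 4 libraries (the members and the named genes of the lists, each in DMSO and in EB) the highest or lowest library lay farther from the rest than Dixon's 95% critical value for the gap over the range allows. Chance alone would mark about 1 in 20 groups if they were independent, but all were read in the same 8 libraries. The share over all genes was not counted, so the 13 are not read as an excess. Of the 13, 8 were the lowest DMSO value, in DMSO replicate 4, the library with 39.0% mitochondrial TPM. These were IGF2R at 23.4 TPM, PLAT at 6.51, PIK3R3 at 32.7, EIF4EBP1 at 167, MTOR at 35.1, TRIB3 at 12.0, PTPRF at 154 and SOCS3 at 5.54 TPM. The other 5 were in EB libraries. IGFBP4 was high in EB replicate 1 at 6.80 TPM, and TRIB3 was high in the same library at 122 TPM. HTRA1 was low in EB replicate 4 at 22.8 TPM, and SOS2 was low in EB replicate 3 at 4.44 TPM. CTCF was high in EB replicate 2 at 30.9 TPM. Only IGF2R and IGFBP4 among these are members.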

How the results depend on the processing

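The members were chosen on this contrast, so their calls under other settings are given as a description and say nothing of stability. IGF2, IGF1R and IRS1 were called lower in each setting run. IGFBP4 was not called after quantile normalization or without any of DMSO replicates 1, 2 and 3 or EB replicates 2, 3 and 4, and IRS2 was called lower with median-ratio scaling, nuclear TPM, the block and without DMSO replicate 4. Members called higher numbered 2 with median-ratio scaling (IGFBP6, IGF2BP3) and 3 after removal of the length and GC trend (IGF2R, INSR, IGF2BP3). Members called lower ranged from 3 to 5 over the omission of single libraries, and higher stayed at 0.

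Over the same omissions the log2 difference of the IGF1R to INSR ratio ran from -1.67 to -1.40, of IGF2R to IGF2 from 2.33 to 2.65, of IGFBP6 to IGFBP4 from 1.06 to 1.197, of IGF2BP3 to IGF2BP2 from 0.87 to 1.12 and of IRS1 to IRS2 from -0.36 to -0.19. Quantile normalization gave -0.54 for IRS1 to IRS2 and 0.57 for IGFBP6 to IGFBP4, and removal of the trend 0.86 for the latter. Of the list genes, 7 to 9 were called higher and 30 to 55 lower over the omissions, and higher calls numbered 18 with median-ratio scaling, 16 after quantile normalization and 18 after removal of the trend. Over all genes, 1785 were higher and 2944 lower, and 1270 to 1826 and 2073 to 4333 over the omissions, the highest lower count being that without DMSO replicate 4. Higher calls numbered 3039, 2792 and 2853 with median-ratio scaling, quantile normalization and removal of the trend, and lower calls 4954 with nuclear TPM. The cause of these changes was not tested.

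Whether the replicate numbers pair the libraries was not settled. The correlation of same-numbered deviations was 0.183, 0.0463, -0.0879 and 0.284 for numbers 1 to 4. The libraries numbered 1 and 4 correlated best with their own number, and those numbered 2 and 3 did not. With the replicate number as a block, 2231 genes were higher and 3525 lower, 11 and 51 of the list genes, and 1 (IGFBP6) and 5 of the members. Without counts, no limit of detection could be set for genes listed at 0.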

Other observations

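Of 9 tested imprinted genes 2 rose and 2 fell, or 22.2% each, near the 15.2 and 25.1% of all tested genes, with a median log2 difference of -0.13 against -0.11 over all tested genes. PHLDA2, a growth-restraining gene of the imprinted region on chromosome 11 that also holds IGF2, rose from 109 ± 9.64 to 229 ± 9.62 TPM (SD, n = 4). Its log2 difference was 1.07 (limma adjusted p = 0.000235), and all 4 EB libraries were higher. TSSC4, of the same region, rose by 0.89 (limma adjusted p = 0.0468, up to 0.116 over the alternatives) with overlapping groups. The potassium channel gene KCNQ1, also of that region, fell from 13.5 ± 2.91 to 7.27 ± 0.257 TPM (-0.78, limma adjusted p = 0.00509). PEG10, an imprinted gene derived from a retrotransposon, fell by 0.64 on the log2 scale (limma adjusted p = 0.0293, up to 0.221) with overlapping groups.

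Of 3 tested oncofetal and IGF2 regulators 2 fell, where 25.1% of all tested genes did. CTCF, which insulates the IGF2 promoters from their enhancers on the maternal allele, fell from 36.6 ± 3.48 to 25.2 ± 3.81 TPM (-0.53, limma adjusted p = 0.0139). PLAGL2, a zinc finger factor related to an activator of IGF2, fell by 0.46 (limma adjusted p = 0.0300), with overlapping groups and a difference of -0.06 after removal of the length and GC trend (adjusted p up to 0.553 over the alternatives).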
